A study of Mus musculus with 12 samples.

Results

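Mbl1 and Mbl2 are the mouse genes for the mannose-binding lectins, and their transcripts were followed in livers of mice with and without chemically induced colitis. The 2 genes were taken as the rows of a liver count table whose Ensembl identifiers carry the names Mbl1 (ENSMUSG00000037780) and Mbl2 (ENSMUSG00000024863) in the GENCODE vM1 annotation, 2 of 51609 gene rows. They were chosen by their counts in these same 4 groups of livers, so their own levels and differences are given as a description, without a test. Mbl1 lies on the plus strand of chromosome 14 at chr14:41964745-41972248 and Mbl2 on the plus strand of chromosome 19 at chr19:30307418-30314175 in the mm9 build of the mouse genome.

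Mannose-binding lectins are soluble proteins of the collectin family, built from a collagen-like stalk and a carbohydrate-binding head that recognises mannose and related sugars on the surface of microbes. Bound lectin brings in the MASP proteases, which cleave complement components C4 and C2 and so start the lectin pathway of complement. The liver is the main source of these proteins in blood. Mice make an A form from Mbl1 and a C form from Mbl2, whereas people have a single functional gene, whose product is usually counted as a weak acute-phase protein, one of the liver proteins that increase in blood during inflammation.

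The study asked how the transcription factors Rela, a subunit of NF-kB, and Stat3 shape the response of the liver to colitis. Total RNA from 12 livers of 5 to 7 week old C57BL/6 mice was depleted of ribosomal RNA and sequenced as paired-end reads, with 3 mice in each of 4 groups. Wild-type untreated mice drank water, and wild-type DSS mice received 2% dextran sodium sulfate (DSS), an irritant of the colon, in drinking water for 6 days. The other two groups, untreated and given the same DSS, carried the genotype labelled RelaΔhepStat3Δhep, in which Cre recombinase under the albumin promoter deletes both genes in hepatocytes, so the other cells of the liver keep them. The mice called wild-type were littermates without Cre that still carry floxed alleles. Male and female mice were used in the study, and the labels do not give the sex of each mouse.

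The deposited values are estimated counts per gene, and they summed to between 65879529 and 82850098 per library, with 20391 to 21830 genes detected. Here they were scaled between libraries with edgeR (TMM) and are given as CPM, counts relative to the scaled library size. The 17652 genes that passed the filter on low counts were tested with the quasi-likelihood F test of edgeR, and a gene was called when its Benjamini-Hochberg adjusted p was under 0.05. Rela was at 39.5 to 62.3 CPM in livers labelled RelaΔhepStat3Δhep after DSS and thus not lower than in wild-type mice, at 39.8 to 55.5 CPM (log2 difference 0.12, standard error 0.19, edgeR adjusted p = 0.827). Counts of whole genes do not show whether single exons were removed, and the genotype is therefore written as the label gives it. The study itself characterised its strains by genotyping and by western blots of total RelA and Stat3 protein, which are not part of these counts. Stat3 after DSS was at 63.2, 329.5 and 307 CPM in wild-type mice and between 43.0 and 74.8 CPM in the labelled knockout, a log2 difference of -1.99 (standard error 0.56) that did not pass (edgeR adjusted p = 0.175). All 6 hepatocyte markers examined were detected in every group. Their summed level was 113001 to 131243 CPM in untreated wild-type livers, 80370.1 to 135397 CPM in wild-type livers after DSS, 126047 to 139415 CPM in untreated labelled knockout livers and 129810 to 168084 CPM in labelled knockout livers after DSS. These sums were mostly Alb, the albumin gene, at 105300 to 113676 CPM in untreated and 108460 to 150254 CPM in DSS-treated labelled knockout livers. After DSS in the labelled knockout the log2 fold changes of Alb (0.17) and Apoa1 (0.22) were positive, and those of Ttr (-0.25), Cps1 (-0.33), Apoa2 (-0.48) and Hnf4a were negative. Of the 6, only the hepatocyte transcription factor gene Hnf4a was called there, as lower (-0.70, standard error 0.18, edgeR adjusted p = 0.0325), like 2.46% of all tested genes. It was not called in 7 of 18 alternative analyses, among them the one with a covariate for high levels of the female-specific RNA Xist (-0.49, adjusted p = 0.612), and the part of the hepatocyte markers in the Mbl1 and Mbl2 values was not tested. In whole liver, fewer cells of a type and less RNA per cell cannot be told apart.

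The libraries also differed in sex-linked transcripts, which the labels do not explain. Xist, the RNA that silences one X chromosome in female cells, was at 1143 CPM in the third untreated wild-type library and at 903 to 1283 CPM in the 3 labelled knockout libraries given DSS. In the other 8 libraries it lay between 0.191 and 29.0 CPM. The summed level of the Y-linked genes Ddx3y, Uty, Kdm5d and Eif2s3y was at most 0.120 CPM in the labelled knockout livers given DSS, 30.1 CPM in the third untreated wild-type library and 175 to 241 CPM elsewhere. Every comparison that involves the labelled knockout after DSS therefore also sets Xist-high against Xist-low libraries, and for those comparisons the treatment or genotype and the sex-linked difference cannot be told apart.

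Mbl1 and Mbl2 are related genes, and a stretch of each promoter and coding sequence is shown around the longest run of bases that the pair shares there. The promoter windows are the 250 bases before the annotated start of each gene in mm9, at chr14:41964495-41964744 for Mbl1 and chr19:30307168-30307417 for Mbl2, both on the plus strand, and they are the same as the windows of the RefSeq promoter table. Capitals mark the longest run that both windows share.

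Mbl1: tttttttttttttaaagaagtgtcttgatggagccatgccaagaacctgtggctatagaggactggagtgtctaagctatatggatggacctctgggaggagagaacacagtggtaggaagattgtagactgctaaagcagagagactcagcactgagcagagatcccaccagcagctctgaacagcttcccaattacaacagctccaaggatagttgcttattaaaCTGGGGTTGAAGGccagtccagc

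Mbl2: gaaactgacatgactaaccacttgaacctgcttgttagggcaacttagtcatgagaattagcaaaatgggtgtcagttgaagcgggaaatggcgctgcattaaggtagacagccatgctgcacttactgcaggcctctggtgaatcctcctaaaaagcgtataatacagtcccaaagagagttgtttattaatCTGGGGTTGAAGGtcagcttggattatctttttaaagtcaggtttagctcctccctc

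The shared run has 13 bases and ends 11 bases before the start of Mbl1 and 45 bases before the start of Mbl2. It sits in a block of 45 aligned columns of which 38 (84.4%) are identical. Among 32851 promoter windows of the same length in RefSeq (GRCm38.p6), the run was found, on either strand, in 3 windows, those of Mbl1, Mbl2 and Slc25a53. Neither member's window held a match, on either strand, to the STAT motif TTCNNNGAA, a simple NF-kB motif (GGG and CC with 5 bases between them), the C/EBP motif TTGCNNAA or the FOXA motif TGTTTAC. These letters occur in 7.02%, 45.8%, 9.56% and 3.17% of all windows, respectively. A lack of a match says only that these letters are not in these windows.

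The coding sequences, of 720 bases for Mbl1 and 735 bases for Mbl2 in GENCODE vM1, were identical at 468 of 745 aligned columns (62.8%). The stretches below run from coding base 82 to 227 of Mbl1 and from 103 to 248 of Mbl2, and capitals mark the longest run that the 2 transcripts share.

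Mbl1: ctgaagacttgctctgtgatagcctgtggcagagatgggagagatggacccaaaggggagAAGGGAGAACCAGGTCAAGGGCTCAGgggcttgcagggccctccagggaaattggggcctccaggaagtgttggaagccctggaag

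Mbl2: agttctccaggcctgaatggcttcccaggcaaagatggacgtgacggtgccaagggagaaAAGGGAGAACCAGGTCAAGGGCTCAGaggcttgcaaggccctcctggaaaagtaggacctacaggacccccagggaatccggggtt

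The run has 26 bases and lies at coding bases 142 to 167 of Mbl1 and 163 to 188 of Mbl2. No longer run is shared over the whole transcripts, of 923 and 1101 bases. How the authors' counting treated reads that could match both genes is not given in the sources used here.

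Mbl1, which encodes the A form, was at 317, 380.2 and 319.9 CPM in the 3 untreated wild-type livers. In wild-type livers after DSS it was at 142, 565 and 559 CPM. The first of these libraries was the lowest of all 12 and the other two were the highest, so the wild-type DSS group spanned every other value. The labelled knockout livers had 336, 240.2 and 231 CPM untreated and 236, 151 and 208 CPM after DSS. In the labelled knockout the untreated values lay above the DSS values except for a narrow overlap between the third untreated and the first DSS library. The raw counts behind these values ran from 10184 to 37829 per library.

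Mbl2, which encodes the C form, was at 292, 354 and 477 CPM in untreated wild-type livers, the last in the library with high Xist. After DSS the wild-type livers had 263, 201 and 307 CPM. These values were mostly below the untreated ones, and the groups overlapped through the third DSS library and the first untreated library. The labelled knockout livers had 248, 299 and 222 CPM untreated and 502, 436 and 388 CPM after DSS. All 3 DSS values were above all 3 untreated values of that genotype and above all 3 DSS values of wild-type mice, and raw counts ran from 12615 to 36447. The 4 libraries with high Xist were the 4 highest for Mbl2. The part of the sex-linked difference in these levels cannot be told apart from that of DSS in the labelled knockout.

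**Figure D1:**
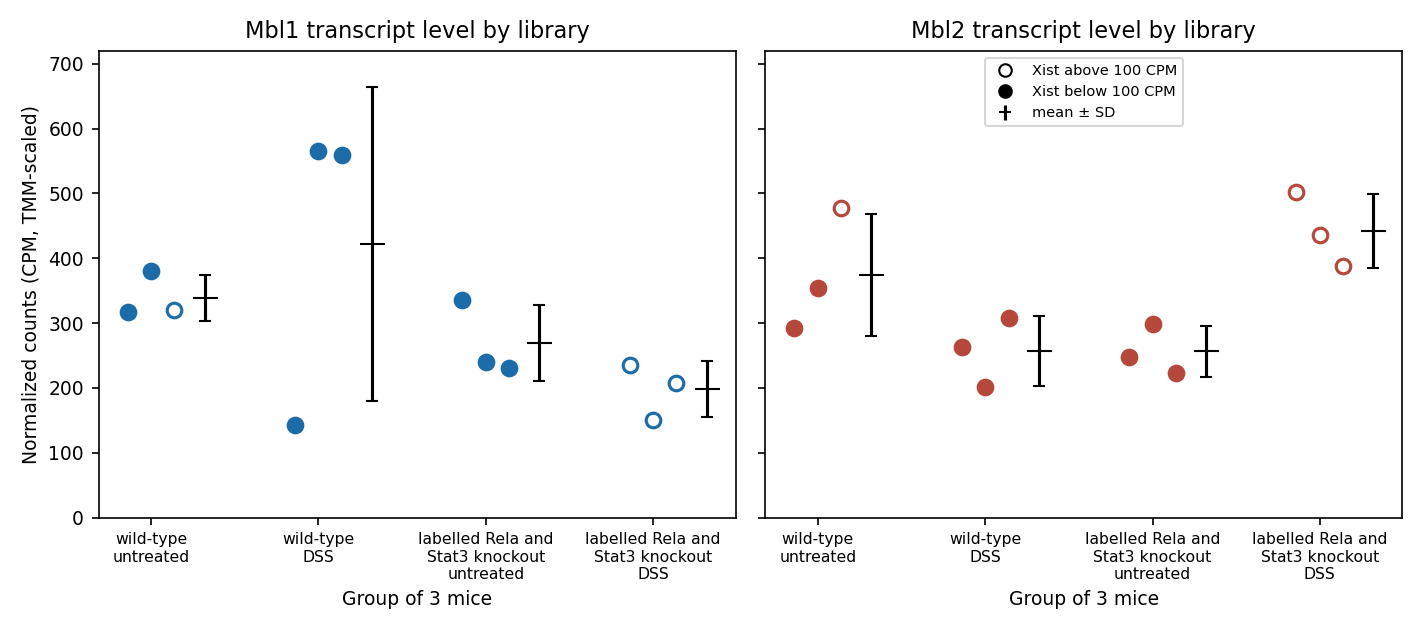
Levels of Mbl1 (left) and Mbl2 (right) in each liver, as TMM-scaled counts (CPM) on a linear axis from 0, for the 4 groups of 3 mice. Circles are single libraries, open where Xist was above 100 CPM, and the bars beside them are the mean ± SD (n = 3). Mbl1 is widest in wild-type DSS livers (142 to 565 CPM), and Mbl2 in labelled knockout DSS livers (388 to 502 CPM) lies above the other groups except the Xist-high untreated wild-type library.

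In order of mean level, Mbl1 was at 422 ± 242 CPM in wild-type DSS, 339 ± 35.7 in wild-type untreated, 269 ± 58.1 in labelled knockout untreated and 198 ± 43.2 in labelled knockout DSS livers (SD, n = 3 each). Each pair of neighbours in this order overlapped in its single values. For Mbl2 the order was labelled knockout DSS (442 ± 57.4 CPM), wild-type untreated (375 ± 94.0), wild-type DSS (257 ± 53.4) and labelled knockout untreated (256 ± 38.8). Here too the neighbours in the order overlapped. On the log2 scale the pooled SD between mice of a group was 0.62 for Mbl1 and 0.28 for Mbl2. The Mbl1 value rests mostly on the wild-type DSS group (SD 242 CPM, against 35.7 to 58.1 in the others), whose first library lay far below the rest. Differences in Mbl1 were thus the less precisely measured in the model of all libraries. The order of the means does not rest on that library, since the others of its group, at 565 and 559 CPM, were the highest of all. The overlap of the wild-type DSS with the wild-type untreated group does rest on it.

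The first comparison was that of DSS with water in wild-type mice. Mbl1 had a log2 fold change of 0.32 (standard error 0.40), which is smaller than its error. It was 0.73 without the first DSS library and 0.04 without the second. For Mbl2 the log2 fold change was -0.54 (standard error 0.22), and it was -0.33 without the Xist-high untreated library. Both pairs of groups overlapped. Of all tested genes, 9.49% had groups that did not overlap with DSS higher and 9.21% with DSS lower.

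In the labelled knockout, the same comparison gave Mbl1 a log2 fold change of -0.44 (standard error 0.40). Its groups overlapped by a narrow margin, and 14% of all tested genes had groups that did not overlap with DSS lower. The value of Mbl2 was 0.79 (standard error 0.22), or 1.73-fold higher after DSS. The Mbl2 groups did not overlap, which was the case with DSS higher for 17.8% of all tested genes. All 3 DSS libraries of this comparison were high in Xist and all 3 untreated ones low. With a covariate for high Xist in the model, the Mbl2 value was 0.23, where the covariate rests on the single Xist-high library of the wild-type untreated group.

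The genotypes were then set side by side at each treatment. In untreated mice, the labelled knockout minus wild-type difference on the log2 scale was -0.33 (standard error 0.40) for Mbl1 and -0.55 (standard error 0.22) for Mbl2, and both pairs of groups overlapped. Of all tested genes, 10.7% had groups that did not overlap with the labelled knockout lower. Without the Xist-high untreated library the Mbl2 difference was -0.34. After DSS the difference was -1.09 (standard error 0.40) for Mbl1, 2.13-fold lower in the labelled knockout, but the low first wild-type library made the groups overlap, whereas 7.98% of all tested genes had groups that did not overlap in this direction. The difference was -1.50 without that library and -0.82 without the second wild-type DSS library. For Mbl2 the difference after DSS was 0.78 (standard error 0.22), 1.72-fold higher in the labelled knockout, with groups that did not overlap. That was the case, in this direction, for 8.8% of all tested genes. With the Xist covariate this Mbl2 difference was 0.22.

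The response of the labelled knockout to DSS minus that of wild-type mice was -0.76 (standard error 0.56, log2) for Mbl1 and 1.33 (standard error 0.30) for Mbl2. The fitted responses of each member thus had opposite signs in the 2 genotypes, that of Mbl1 within about 1 standard error of 0 in each, and the signs of the 2 members were also opposite to each other. With the Xist covariate the difference between responses was 0.56 for Mbl2, and leaving out 1 library gave -1.17 to -0.49 for Mbl1. The 4 comparisons share groups, so these values are not independent of each other.

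To compare the levels of the 2 genes with each other, CPM were divided by the exon length of each gene (923 bases for Mbl1, 1101 bases for Mbl2). Per kilobase, Mbl1 was at 367 ± 38.7 and Mbl2 at 340.2 ± 85.3 CPM in untreated wild-type livers (SD, n = 3), the 105th and 119th highest levels among 19582 named genes with counts. The ratio of Mbl1 to Mbl2, which does not depend on scaling between libraries, was 1.29, 1.28 and 0.800 in these livers. It was 0.645, 3.35 and 2.17 in wild-type livers after DSS and 1.62, 0.959 and 1.24 in untreated labelled knockout livers.

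In labelled knockout livers after DSS the ratio was 0.560, 0.413 and 0.640. These 3 were the lowest of all 12, with the first wild-type DSS library just above them at 0.645. Group means were 1.12 ± 0.281, 2.06 ± 1.36, 1.27 ± 0.330 and 0.538 ± 0.115 in the order wild-type untreated, wild-type DSS, labelled knockout untreated and labelled knockout DSS. Mbl1 thus had the higher level per kilobase in most livers of the first 3 groups, and Mbl2 in every liver of the last. The sum of both per kilobase was 707 ± 88.4, 691 ± 262, 524 ± 68.7 and 617 ± 82.9 CPM in the same order. Over the 12 libraries, Pearson's r between log2 levels of the 2 genes was -0.31 and Spearman's rho -0.23, and with group means removed r was -0.07. These are descriptions over libraries that share groups and scaling.

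The members were set against genes listed as positive acute-phase genes, most of which encode proteins that increase in blood during inflammation. Of 30 such genes listed, 19 had a row and were tested, and the other 11 were not analysed here. In wild-type mice 19 of 19 had a positive log2 fold change after DSS, with a median of 2.29 against 0.02 over all tested genes. None was called by edgeR, although 17 had an unadjusted p under 0.05, DESeq2 called 16, and edgeR called 14 without the first wild-type DSS library. Of all tested genes edgeR called 0.685% and 14.5% had an unadjusted p under 0.05, and DESeq2 called 5.61% of the genes to which it gave an adjusted p. Over the fits that each left out 1 library, edgeR called 35 to 209 of all genes in this comparison. The median was 1.07 without the second wild-type DSS library, in which the values were highest.

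The 3 highest log2 fold changes of the list were those of Saa2, a serum amyloid A (9.89, standard error 2.84, edgeR adjusted p = 0.156), Lcn2, an iron-siderophore-binding protein (8.11, standard error 2.06, edgeR adjusted p = 0.119), and Mt2, a metallothionein (5.48, standard error 1.56, edgeR adjusted p = 0.153). Saa2 was at 10.1, 23329.9 and 698 CPM in the 3 wild-type DSS libraries, against 2.53 to 11.5 CPM untreated. The 3 lowest were Crp, the C-reactive protein (0.46, standard error 0.30), Serping1, the C1 inhibitor (0.93, standard error 0.26), and Cd14, a co-receptor for lipopolysaccharide (1.41, standard error 0.73), with edgeR adjusted p of 0.522, 0.123 and 0.411. The value of Mbl1 (0.32) was thus below all 19, and that of Mbl2 (-0.54) was below them and negative. Without the second wild-type DSS library 1 of the 19, Cd14, was at -0.53, below both Mbl1 (0.04) and Mbl2 (-0.40).

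In the labelled knockout the 19 genes also had positive log2 fold changes after DSS, with a median of 0.53 against -0.01 over all tested genes. EdgeR called 0 of them, 5 had an unadjusted p under 0.05 and DESeq2 called 3. Over all tested genes edgeR called 7.02%, 24.1% had an unadjusted p under 0.05 and DESeq2 called 13.9%, so the share of the list at an unadjusted p under 0.05 was near that of all genes. Fitted on only the groups compared, edgeR called 5 of the 19, and the share of all genes in that fit is not given here. Mbl2 (0.79) was above 11 of the 19 and Mbl1 (-0.44) below the lowest value of 0.03. With the Xist covariate the order of Mbl2 and the median of the list turned round, with Mbl2 at 0.23 and the median at 0.84. Between the genotypes after DSS, 19 of 19 were lower in the labelled knockout, with a median difference of -1.94. Again edgeR called none, 16 had an unadjusted p under 0.05 and DESeq2 called 9, against 0.334%, 14.3% and 3.91% of all genes by the same counts. Without the first wild-type DSS library edgeR called 11 of the 19 as lower. Over the fits that each left out 1 library, it called 11 to 392 of all genes in this comparison. Without the second wild-type DSS library the median of the list was -0.69 and 3 of the 19 were higher.

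The highest of these 19 genotype differences was -0.22, that of Crp. Mbl1, at -1.09, lay within the range of the list, and Mbl2, at 0.78, lay above all of it. Without the second wild-type DSS library 2 of the 19 were above Mbl2, which was then at 0.63, and the highest was at 1.76. In untreated mice 14 of the 19 were lower in the labelled knockout, with a median of -0.23. Of these, 0 were called by edgeR, 0 had an unadjusted p under 0.05 and 0 were called by DESeq2. The same shares over all genes were 0.0623%, 11.7% and 2.31%. The interaction was negative for 17 of 19, with a median of -1.53. Without the second wild-type DSS library it was negative for 12 of 19, with a median of -0.52. In the model of all libraries edgeR called 0 of these, 9 had an unadjusted p under 0.05 and DESeq2 called 1, against 0.408%, 16.3% and 4.5% of all genes.

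**Figure D2:**
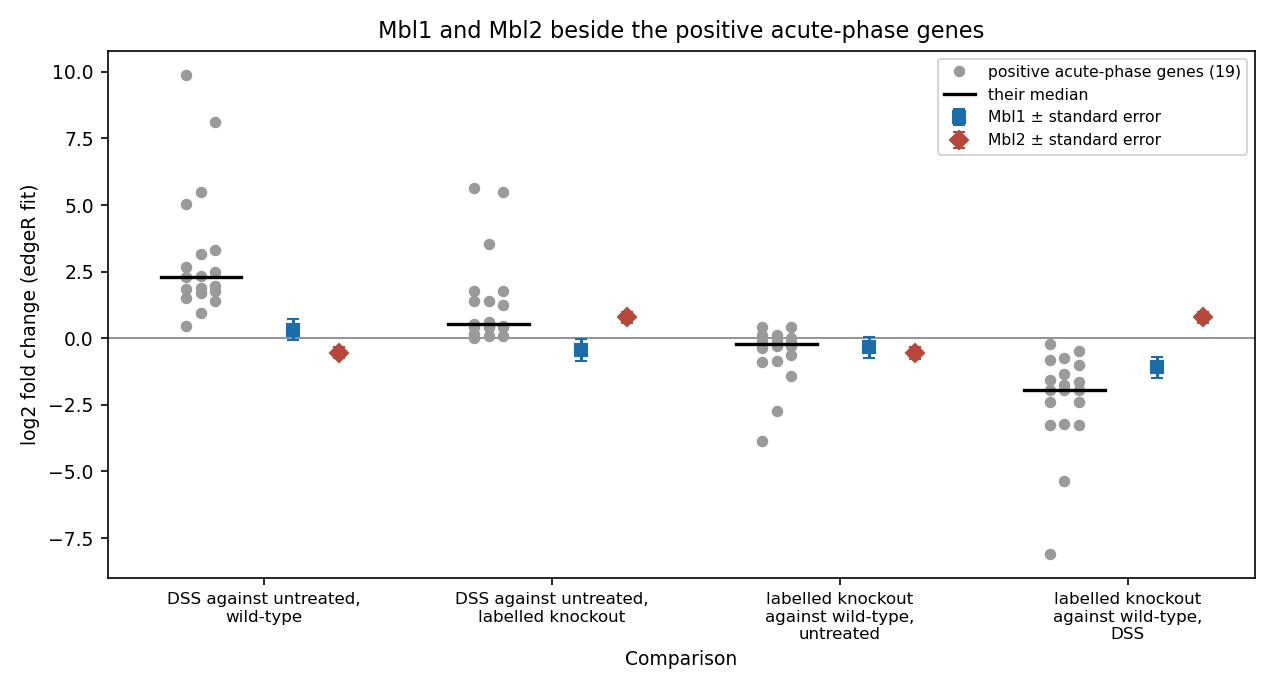
Log2 fold changes of the edgeR model in 4 comparisons: grey points are the 19 positive acute-phase genes, black lines their median, the blue square is Mbl1 and the red diamond Mbl2, with bars of 1 standard error. After DSS in wild-type mice both members lie below all 19 genes (median 2.29), and after DSS between genotypes Mbl2 lies above them (0.78 against a median of -1.94). Without the second wild-type DSS library 1 gene lies below both members in the first of these and 2 lie above Mbl2 in the second.

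The comparison was repeated within each library, as the median log2 CPM of the 19 genes minus their mean in untreated wild-type livers. This median was 0.30, 3.47 and 1.63 in the 3 wild-type DSS libraries, which therefore differed widely among themselves. In the same libraries Mbl1 was at -1.24, 0.74 and 0.73 relative to untreated wild-type livers. The library with the low acute-phase median was the one with the low Mbl1, and the pair with the high medians had the high Mbl1. Mbl2 was at -0.48, -0.87 and -0.26 in these libraries, lowest where the acute-phase median was highest.

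In the labelled knockout livers after DSS the acute-phase median was 0.34, 0.48 and 0.47. Mbl1 was at -0.52, -1.16 and -0.70 and Mbl2 at 0.45, 0.25 and 0.08 in the same libraries. All 3 livers thus had a modest positive acute-phase median with negative Mbl1 and positive Mbl2 values. In the untreated livers of that genotype the median was -0.25, -0.19 and -0.31. The summed level of 5 neutrophil markers, none of them at 0 in all libraries, was 1.68 to 3.18 CPM in untreated wild-type livers, 2.06 to 80.1 CPM in wild-type livers after DSS, 0.345 to 0.572 CPM in untreated and 5.79 to 20.6 CPM in DSS-treated labelled knockout livers. Their part in the acute-phase values was not tested.

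**Figure D3:**
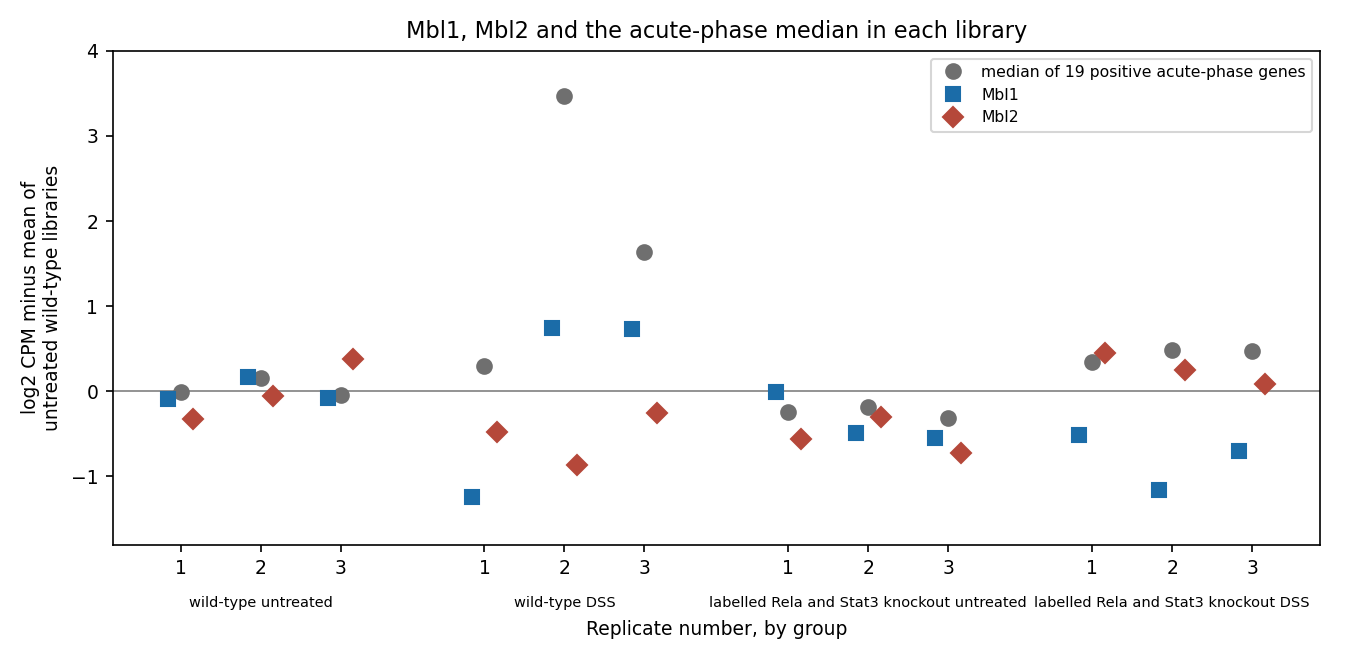
Log2 CPM of Mbl1 (squares), Mbl2 (diamonds) and the median of the 19 positive acute-phase genes (circles) in each of the 12 livers, as the difference from the mean of the untreated wild-type livers, which is the line at 0. In wild-type DSS livers the acute-phase median runs from 0.30 to 3.47 and Mbl2 is negative in all 3, and in labelled knockout DSS livers Mbl1 is negative and Mbl2 positive in all 3.

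Of 10 negative acute-phase genes, whose products decrease in blood during inflammation, 9 were tested. Their DSS responses had a median of -0.13 for wild-type mice, where 4 of 9 were positive and the values ran from -1.08 to 0.93. For the labelled knockout the median was 0.13, and 5 of 9 were positive. Serpina6, the corticosteroid-binding globulin, was called lower after DSS in the labelled knockout (-1.99, standard error 0.52, edgeR adjusted p = 0.0455), as 2.46% of all tested genes were, but not in 13 of 18 alternative analyses, over which its log2 fold change stayed between -2.35 and -1.74. It was at 248 to 455 CPM untreated and 62.1 to 115 CPM after DSS.

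The other genes of the lectin pathway were examined as the partners of the members. Of 15 listed, 10 had a row and 9 were tested. C4a, C4b, C2, C3 and Cd55 were not analysed here, and Fcnb, a ficolin, had 0 counts in all 12 libraries, which does not exclude a level too low to be detected. In none of the 5 comparisons did edgeR call any of the 9. The number with an unadjusted p under 0.05 was 4 for DSS in wild-type mice, 2 for DSS in the labelled knockout, 0 between the untreated genotypes, 6 between the genotypes after DSS and 4 for the interaction. Over all tested genes these shares were 14.5%, 24.1%, 11.7%, 14.3% and 16.3%, so that the 2 of 9 in the labelled knockout were near the share of all genes. DESeq2 called 2, 0, 0, 2 and 1 of the 9, respectively, and 5.61%, 13.9%, 2.31%, 3.91% and 4.5% of all genes.

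Of the other recognition molecules, Fcna, a ficolin of liver macrophages, was at 31.2 to 35.8 CPM in untreated wild-type livers and 24.5 to 40.5 CPM after DSS. The labelled knockout livers had 32 to 34.5 CPM untreated and 42.0 to 42.6 CPM after DSS. Its log2 difference between the genotypes after DSS was 0.50 (standard error 0.17, edgeR adjusted p = 0.223), and without the second wild-type DSS library it was called (0.78, edgeR adjusted p = 0.0182). Colec10, a collectin of the liver, had log2 fold changes after DSS of -0.46 (standard error 0.21, edgeR adjusted p = 0.342) in wild-type mice and 0.49 (standard error 0.21, edgeR adjusted p = 0.175) in the labelled knockout. These have the signs of the Mbl2 values, and the difference between them did not pass (0.95, standard error 0.30, edgeR adjusted p = 0.169). Colec11, a related collectin, had values of -0.04 and 0.07 in the 2 genotypes (standard error 0.18 each).

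Masp1, a protease that associates with the lectins, was at 249.9 to 293 CPM in untreated and 290.4 to 392 CPM in DSS-treated wild-type livers. It was at 269 to 304 CPM in untreated and 188 to 242 CPM in DSS-treated labelled knockout livers. Its genotype difference after DSS was -0.67 (standard error 0.16, edgeR adjusted p = 0.110). DESeq2 called it (adjusted p = 0.00157), as did edgeR without the first wild-type DSS library (-0.79, adjusted p = 0.0304). Masp2, the protease that cleaves C4 and C2, had log2 fold changes after DSS of 0.18 in wild-type mice and -0.33 in the labelled knockout (standard error 0.17 each), neither of them called.

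The regulators were C4bp, which binds C4b, Cfi, the protease that degrades C4b and C3b, the membrane regulator Cr1l, and Serping1, which inhibits the MASPs and is also one of the positive acute-phase genes above. In wild-type mice their log2 fold changes after DSS were 0.79 (standard error 0.27) for C4bp, 0.48 (0.24) for Cfi, 0.04 (0.12) for Cr1l and 0.93 (0.26) for Serping1, with edgeR adjusted p of 0.188, 0.373, 0.914 and 0.123. For the labelled knockout the same 4 values were -0.08, 0.04, 0.19 and 0.08. DESeq2 called Serping1 and C4bp in wild-type mice (adjusted p = 0.0104 and 0.0457). Without the first wild-type DSS library edgeR called Serping1 there (1.17, adjusted p = 0.0331), and C4bp between the genotypes after DSS (-1.07, adjusted p = 0.0377).

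Over the 9 genes the median of the DSS responses was 0.18 for wild-type mice, with 6 positive and 3 negative, and 0.07 for the labelled knockout, again with 6 positive and 3 negative. Between the genotypes it was -0.0004 untreated and -0.38 after DSS, with 4 positive and 5 negative each, and the interaction had a median of -0.44. Medians over all tested genes were between -0.02 and 0.02. Per kilobase, the levels of the 2 members in untreated wild-type livers were close to those of Cfi (331 ± 36.6 CPM) and Serping1 (312 ± 40.3 CPM). They were above those of Masp2 (51.7 ± 4.64), Masp1 (45.3 ± 3.59), Fcna (23.8 ± 1.78), Colec10 (16.04 ± 2.14) and Colec11 (16.04 ± 2.24 CPM, SD, n = 3 each).

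**Figure D4:**
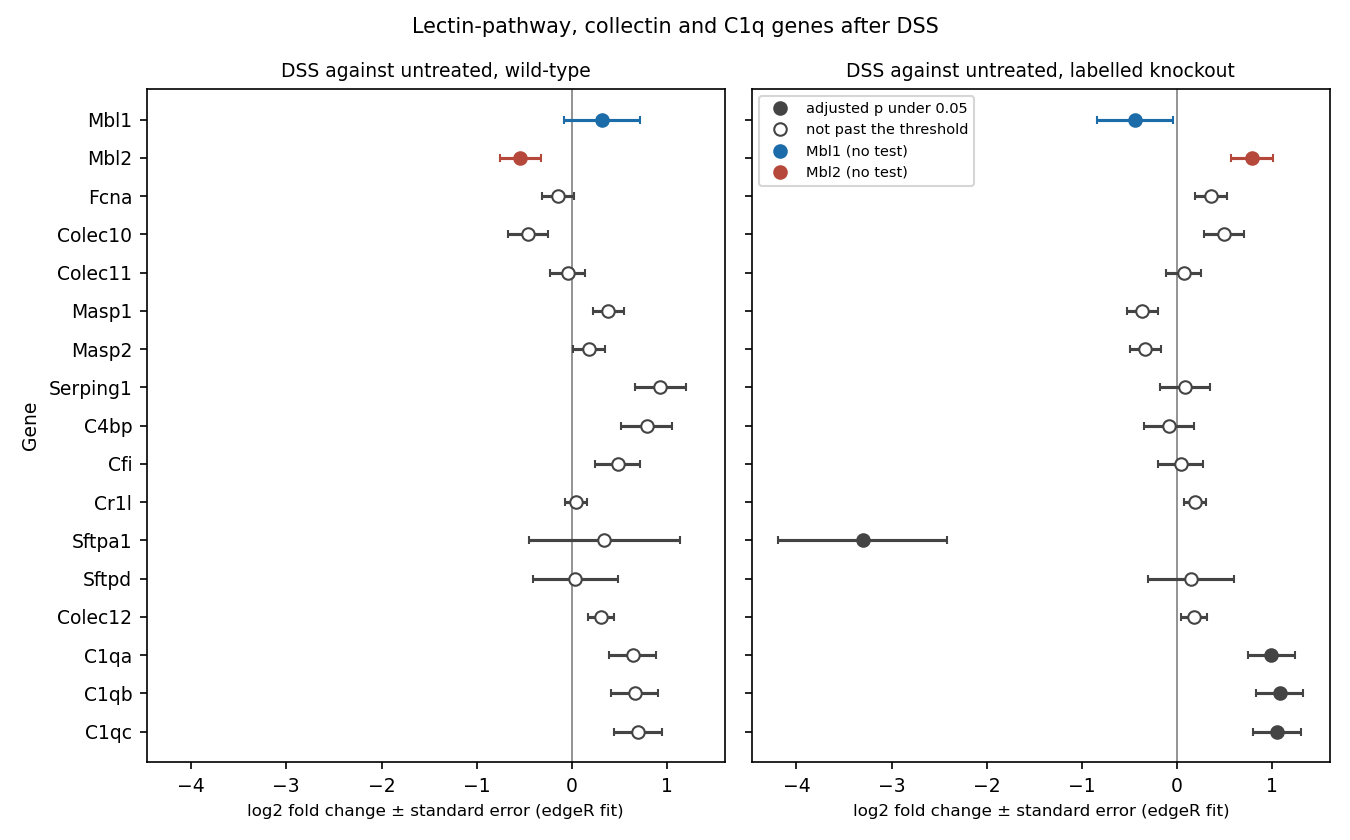
Log2 fold changes after DSS in wild-type (left) and labelled knockout mice (right) for Mbl1, Mbl2, 9 lectin-pathway genes, 3 other collectins and 3 C1q genes, with bars of 1 standard error from the edgeR model. Filled grey points have an adjusted p under 0.05, open points do not, and the coloured members were not tested. C1qa, C1qb and C1qc are filled at about 1 in the labelled knockout, and Sftpa1, a gene at the edge of detection, is filled at -3.30.

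Of the other collectin genes, Sftpa1 and Sftpd encode surfactant proteins and Colec12 a scavenger receptor. Colec12 was at 16.9 ± 2.63 CPM per kilobase in untreated wild-type livers and was not called in any comparison. Sftpd and Sftpa1 were at 0.841 ± 0.124 and 0.129 ± 0.0531 CPM per kilobase. Sftpa1 was called lower after DSS in the labelled knockout (-3.30, standard error 0.89, edgeR adjusted p = 0.0426), as 2.46% of all tested genes were. It was at 0.452 to 1.35 CPM untreated and at most 0.185 CPM after DSS. The call was lost in 11 of 18 alternative analyses, among them the Xist covariate (-4.25, edgeR adjusted p = 0.338), while its log2 fold change stayed between -4.27 and -2.69.

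The C1q genes were examined as the recognition molecule of the classical pathway, which uses the same C4 and C2 as the lectin pathway. Of 5 classical-pathway genes listed, C1qa, C1qb and C1qc were tested, and C1ra and C1s were not analysed here. In the labelled knockout the 3 genes rose after DSS, by log2 fold changes of 0.99 (C1qa, standard error 0.25, edgeR adjusted p = 0.0326), 1.08 (C1qb, 0.25, edgeR adjusted p = 0.0227) and 1.05 (C1qc, 0.25, edgeR adjusted p = 0.0290). Of all tested genes, 4.57% were called higher in this comparison. The C1q genes were called in 12 of 18 alternative analyses. The calls were lost with the Xist covariate and without each of the untreated libraries of that genotype and its first and second DSS libraries, with an adjusted p of up to 0.411 for C1qa. The log2 fold changes themselves stayed between 0.91 and 1.14 (C1qa), 1.01 and 1.36 (C1qb) and 0.94 and 1.33 (C1qc), and with the Xist covariate they were 1.14, 1.36 and 1.33.

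C1qb was at 46.1 to 50.9 CPM in untreated and 84.2 to 112 CPM in DSS-treated labelled knockout livers. In wild-type livers it was at 37.3 to 65.9 CPM untreated and 51.6 to 103 CPM after DSS (log2 difference 0.66, standard error 0.25, edgeR adjusted p = 0.234). The difference between these responses did not pass either (0.42, standard error 0.35, edgeR adjusted p = 0.570). The C1q genes are made mainly by macrophages, and the summed level of 5 Kupffer cell markers moved with them. It was 269 to 295 CPM in untreated and 551 to 898 CPM in DSS-treated labelled knockout livers, and 220.2 to 471 and 356 to 809 CPM in wild-type livers, with no marker at 0 in all libraries. Of the 5, Clec4f, Vsig4, Cd5l and Marco were called higher after DSS in the labelled knockout. They were not called in 4, 9, 6 and 11 of 18 alternative analyses, respectively, and none of these 4 was called with the Xist covariate (edgeR adjusted p from 0.385 to 0.543), where their log2 fold changes were 1.08, 1.09, 1.55 and 2.92 against 1.07, 1.18, 1.498 and 2.49 without it. The summed level of 5 stellate cell markers, none at 0 in all libraries, was also higher in that group, at 341 to 389 CPM untreated and 400.1 to 494 CPM after DSS in the labelled knockout, against 336 to 437 and 294 to 391 CPM in wild-type livers. Of these 5, Des was called higher after DSS in the labelled knockout (1.98, standard error 0.42, edgeR adjusted p = 0.0179), but not in 5 of 18 alternative analyses, among them the Xist covariate (1.90). Its levels after DSS were 7.10, 8.59 and 28.2 CPM in ascending order, and without the third DSS library of that genotype its log2 fold change was 1.08, still called (edgeR adjusted p = 0.0143). Of the other 4, Lrat (0.63) and Dcn (0.62) had positive values, and Reln (-0.45) and Pdgfrb (-0.05) negative ones. The part of the macrophage and stellate cell markers in the C1q, Fcna and Colec10 values was not tested.

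The genes whose levels were most like those of the members over the 12 libraries were ranked by Pearson's r of log2 CPM, among 6933 named genes with a mean of at least 10 CPM. For Mbl1 they were Wbp1 (0.894), the collagen gene Col15a1 (0.890), Xiap, an inhibitor of apoptosis (0.864), the zinc transporter Slc30a7 (0.849) and Sepx1, a methionine sulfoxide reductase (0.846). Xiap, for example, was at 262 ± 16.9 CPM in wild-type untreated, 251 ± 63.9 in wild-type DSS, 211 ± 34.7 in labelled knockout untreated and 207 ± 36.4 in labelled knockout DSS livers. Like Mbl1, it had its widest spread in wild-type livers after DSS.

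For Mbl2 the most similar genes were Htatip2 (0.908), the peroxiredoxin Prdx1 (0.907), the organic anion transporter Slc22a26 (0.901), Fam84b (0.869) and the X-linked translation factor gene Eif2s3x (0.869). Htatip2 was at 41.8 ± 10.02 CPM in wild-type untreated, 33.6 ± 4.496 in wild-type DSS, 31.2 ± 1.65 in labelled knockout untreated and 54.5 ± 5.32 in labelled knockout DSS livers. Slc22a26 ranged from 22.6 to 227 CPM in untreated wild-type livers and from 184 to 277 CPM in labelled knockout livers after DSS, but only from 1.67 to 8.64 CPM over the other 6. These correlations are descriptions over 12 libraries that share groups and sex-linked differences. With a minimum mean of 1 CPM, 6 of the 10 genes stayed on the lists, and with Spearman's rho 5 of 10.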

How the data were processed

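Liver RNA of 12 mice was analysed in 4 groups of 3, taken from the sample labels. The authors trimmed reads with fastp, aligned them to mm9 with HISAT2 and had StringTie assign reads to genes. The deposited values are estimated counts in whole numbers, before normalization, and the annotation release the authors used is not given in the sources used here. Names and sequences came from GENCODE vM1 (mm9) and RefSeq. The model was fitted with edgeR 4.0.16 under R 4.3.3 (filterByExpr, TMM factors 0.758 to 1.13, robust quasi-likelihood F test, 1 model with 4 groups). Sequences were aligned with Biopython 1.88. Fold changes are on the log2 scale, and log2 CPM used a pseudocount of 0.5. The biological coefficient of variation was 0.317. The libraries of a group are labelled as biological replicates, and precision was limited by 3 mice a group. No libraries of the same group were duplicates of each other.

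The members and lists were chosen with earlier results of these data known. The genes named were both members, the listed lectin, collectin and classical genes, acute-phase genes past the threshold or among the 3 highest and 3 lowest positive ones in wild-type mice, the 5 genes most similar to each member, and checks of labels and cell types. Alternatives were DESeq2 1.42.0, its size factors in edgeR, no filter, a model of only the groups in question, a block for the replicate number, an Xist covariate (above 100 CPM), other similarity measures, the longest transcript, and leaving out each library. The steps were tested on simulated data.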

Additional observations from a re-analysis of the deposited data

Results flagged for a closer look

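Mbl2 drew attention because its DSS response differed in direction between the genotypes. Its log2 fold change was -0.54 in wild-type mice, where the DSS and untreated groups overlapped, and -0.33 without the Xist-high untreated library. In the labelled knockout it was 0.79, and the groups did not overlap, as with DSS higher for 17.8% of all tested genes. The responses differed by 1.33 on the log2 scale (standard error 0.30), and by 0.56 with the Xist covariate. This difference was not tested, since the gene was chosen with its levels known, and all 3 labelled knockout DSS libraries were Xist-high.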

How the results depend on the processing

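All 178 alternative values of the log2 differences of Mbl1 and Mbl2 had the sign given above, and 175 moved by less than 1 SD between mice (0.62 for Mbl1, 0.28 for Mbl2). The exceptions were with the Xist covariate, where Mbl2 was at 0.23 for DSS in the labelled knockout, 0.22 between genotypes after DSS and 0.56 for the difference between responses. The Mbl1 SD rests mostly on the wild-type DSS group, so with a smaller SD more of the Mbl1 values would count as exceptions. Leaving out 1 library gave Mbl1 0.04 to 0.73 (DSS, wild-type), -0.60 to -0.25 (DSS, labelled knockout), -0.53 to -0.23 (genotype, untreated), -1.50 to -0.82 (genotype, DSS) and -1.17 to -0.49 (difference between responses), and Mbl2 -0.70 to -0.33, 0.67 to 0.91, -0.70 to -0.34, 0.63 to 0.93 and 1.12 to 1.48.

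In the same order of comparisons, edgeR called 121, 1240, 11, 59 and 72 of all genes. DESeq2 called 840, 2307, 334, 585 and 698, and the Xist covariate left 50, 4, 2, 5 and 4. With only the groups compared, 21 genes were called for DSS in wild-type mice and 60 between untreated genotypes. Leaving out 1 library gave 35 to 209, 241 to 1736, 2 to 34, 11 to 392 and 21 to 220 genes. Of the acute-phase genes, DESeq2 called 16, 3, 0, 9 and 1. EdgeR with DESeq2 size factors or without a filter called 1 for DSS in wild-type mice. On only the groups compared edgeR called 5 for DSS in the labelled knockout, and the number of all genes called in that fit is not given here. Leaving out 1 library gave 0 to 14, 0 to 3, 0, 0 to 11 and 0 to 4. Of the lectin-pathway genes, DESeq2 called 2, 0, 0, 2 and 1 and leaving out 1 library 0 to 1, 0 to 1, 0, 0 to 2 and 0. Of the 10 most similar genes, 6 remained with a minimum of 1 CPM and 5 with Spearman's rho. The causes were not tested.

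The deviations of same-numbered libraries from their group means had r from -0.07 to 0.21 (18 pairs, 5 over 0.1). Pairs with different numbers had r from -0.26 to 0.22. With the replicate number as a block, Mbl1 was at 0.28, -0.44, -0.32, -1.04 and -0.73 and Mbl2 at -0.54, 0.79, -0.53, 0.80 and 1.33, and 119, 1164, 33, 66 and 128 genes were called. With 3 mice a group, the Mbl1 differences had a standard error of 0.40, or 0.56 for the difference between responses, which limited what could be resolved.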
